A study of Saccharomyces cerevisiae with 8 samples.

Results

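Gene expression was compared among 4 separate cultures of one wild type (WT) strain of budding yeast, Saccharomyces cerevisiae. They are 4 of the 8 samples of a study that set this strain beside a strain with the CDC34tm allele. The labels number the WT cultures 1 to 4 and record no difference between them. Replicates 1 and 4 were set against replicates 2 and 3 because their array signals divide that way, so the pairs were chosen by the WT signals themselves, as log2 differences across probe sets. Every WT difference below is therefore a description with no test, and no support is drawn from its size or from the number of genes it covers.

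The WT strain is DBY2059, MATα with the leu2-3, 112 allele, a leucine auxotroph. The CDC34tm strain is RRC85, MATα, with CDC34tm linked to NatR, the gene for nourseothricin resistance, and a partly disrupted 3' region of PST1. The source name of each sample lists these variables and the leu2 allele without saying which strain carries which, and the growth protocol gives the leu2 allele for WT alone. All 8 cultures were started from stationary phase and grew at 30 °C in a synthetic medium. It held 25.2 mg/L of leucine, 0.25% of glutamine for nitrogen and 2% of dextrose for carbon. They went through between 3 and 4 doublings and were frozen in liquid nitrogen, with 1 Affymetrix Yeast 2.0 array per culture. No time, cell density or handling record per culture is among the labels used here.

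Yeast cells that meet heat or misfolded protein activate Hsf1, which drives genes for chaperones such as Hsp90, Hsp70 and the disaggregase Hsp104. A wider set of stresses, and the slowing of growth as glucose runs down, activates Msn2 and Msn4, which drive genes for trehalose, glycogen and stress protection. Under the same conditions cells lower the transcripts that build ribosomes. Phosphate, nitrogen and inositol supply each control further sets of genes through dedicated regulators.

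Signals are MAS5 intensities in arbitrary units. They were compared as log2(signal + 16), so that a difference of 1 is 2-fold on that scale, which understates differences of dim genes. A difference is the mean of replicates 1 and 4 minus the mean of replicates 2 and 3. The groups do not overlap when both signals of one pair exceed both of the other. The 5242 S. cerevisiae probe sets with a mean WT signal of at least 50 were used, for 5202 genes. Just outside that minimum lay YAL037C-A with a mean of 49.4 and YHR007C-A with 49.5. Just inside it lay SPO75 with 50.1 and XBP1, a stress-linked transcriptional repressor, with 50.3. XBP1 had signals of 63.6 and 78.9 in replicates 1 and 4 and of 34.1 and 24.7 in replicates 2 and 3. The minimum is a mean over all WT arrays, so a gene can meet it through 1 pair or 1 culture alone.

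Array to array, replicates 1 and 4 had 12 probe sets at least 2-fold apart, and replicates 2 and 3 had 16. Across the pairs the count was 92 for replicates 1 and 2, 108 for 1 and 3, 106 for 2 and 4, and 110 for 3 and 4. Each of the 4 crossings thus held many more probe sets than either pair. The first principal component held 74.0% of the variance among the WT arrays, with scores of 12.1 and 12.5 for replicates 1 and 4 and of -11.8 and -12.8 for replicates 2 and 3. In CDC34tm it held 59.2%, with replicate 2 at -10.4 and replicates 1, 3 and 4 at 2.08, 5.98 and 2.30. In the CDC34tm strain no pair of the 4 cultures differed 2-fold in more than 5 probe sets. The median SD over 4 arrays was 0.128 on the log2 scale in WT and 0.0860 in CDC34tm.

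**Figure D1:**
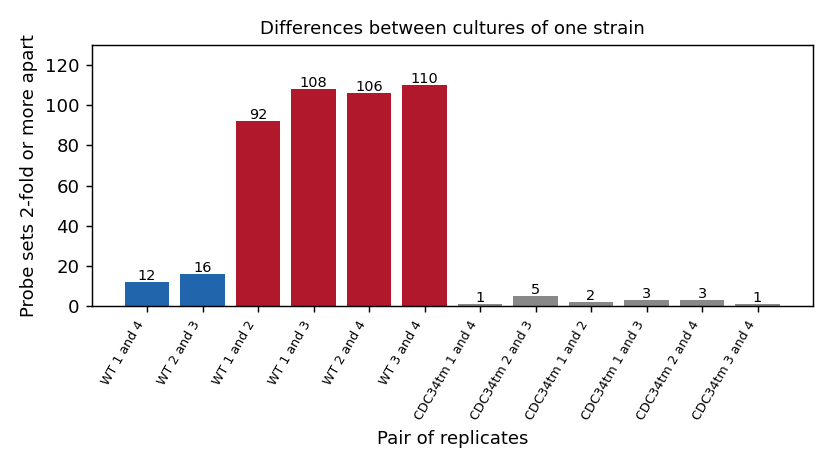
Number of probe sets at least 2-fold apart on log2(signal + 16), for each pair of cultures of one strain. Blue bars are WT pairs 1 and 4 and 2 and 3, red bars are WT pairs that cross them, and grey bars are CDC34tm pairs. The red bars range from 92 to 110 and the other WT bars are 12 and 16.

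Signals of replicates 1 and 4 lay above those of 2 and 3 without overlap in 25.7% of the probe sets and below in 35.4%, which makes 61% in either direction. They were at least 2-fold higher without overlap in 73 probe sets, 1.39% of those used, and at least 2-fold lower in 8, which is 0.153%. At a 1.5-fold minimum, chosen after seeing the data, 231 (4.41%) were higher and 79 (1.51%) lower. These shares come from the contrast that chose the pairs, and nothing is read from them. By gene, 1340 of 5202 were higher without overlap, 1850 were lower and 2012 overlapped, with a median difference of -0.03. Each list count below is to be read beside these counts over all genes. Of the 73 genes at least 2-fold higher, 14 were at least 4-fold higher. The lower count rose whichever WT array was left out, most of all without replicate 2. With 3 arrays the order criterion is easier to meet. Without replicate 2, replicate 3 alone forms that side, so genes high in replicate 3 alone, such as PRM6 and AGA1, can meet it.

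**Figure D2:**
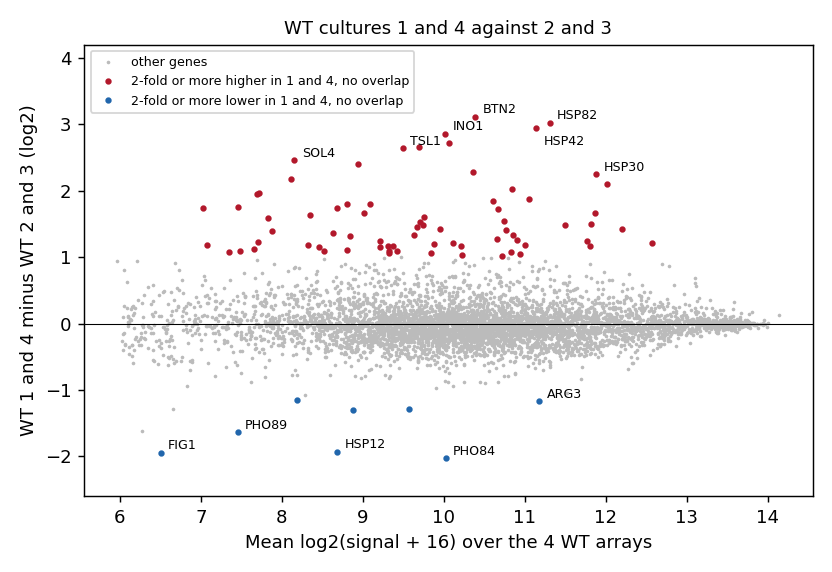
Difference between WT replicates 1 and 4 and replicates 2 and 3 in log2(signal + 16) for each of 5202 genes, against the mean over the 4 arrays. Red points are the 73 genes at least 2-fold higher without overlap and blue points the 8 lower ones. The higher genes span dim and bright signals and reach 3.11 for BTN2, and the lowest point is PHO84 at -2.03.

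Genes for protein disaggregation and sorting held some of the largest differences. BTN2, which gathers misfolded proteins at specific sites, had signals of 3107 and 4979 in replicates 1 and 4 and of 507 and 381 in replicates 2 and 3. HSP42, a small heat shock protein that binds unfolding proteins, had signals of 5770 and 6744 against 978 and 652. HSP104, the disaggregase of the cytosol, had signals of 7999 and 9173 against 2090 and 1871. In all 3 genes both cultures of the first pair stood far above both of the second, with no overlap. The differences were 3.11 for BTN2, 2.94 for HSP42 and 2.11 for HSP104. The SDs within the pairs were 0.393, 0.308 and 0.127. The pairs were chosen by these signals, which tends to keep such SDs small, so nothing is read from the contrast. CUR1, a relative of BTN2, had signals of 2618 and 3263 against 980 and 995. MBF1, a transcriptional coactivator, had signals of 9905 and 9153 against 5468 and 4961. All 8 listed genes of this group were higher without overlap, with a median difference of 1.83. The smallest difference in the group was 0.43, that of HSP26, another small heat shock protein. The signal of HSP26 was 304 and 327 against 192 and 272, so replicate 3 was near replicate 1. On every WT array this gene lay below the median signal of the probe sets used.

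Among Hsp90 and its cochaperones, the difference lay mainly in the inducible Hsp90. HSP82 had signals of 6920 and 7528 in replicates 1 and 4 and of 815 and 943 in replicates 2 and 3. Its constitutive partner HSC82 had signals of 11652 and 11424 against 10682 and 10098. Neither gene overlapped between the pairs, but the difference was 3.02 for HSP82 and 0.15 for HSC82. Their sequences are close, and cross-hybridisation between their probes was not tested. AHA1, which stimulates the Hsp90 ATPase, was 1.93-fold higher, and STI1, which links Hsp70 to Hsp90, was 1.62-fold higher. CNS1, another cochaperone, went the other way with signals of 3282 and 3143 against 4048 and 4339. Of 12 genes in this list 7 were higher without overlap and 2 lower, with a median of 0.16.

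The Hsp70 system and the mitochondrial chaperones divided in the same manner between a few members and the rest. Of 17 genes of the Hsp70 system 9 were higher without overlap and 1 lower, with a median of 0.10. APJ1, an Hsp40 with a role in clearing aggregates, had signals of 1012 and 1526 against 434 and 539. SSE2, a nucleotide exchange factor, had signals of 1347 and 2067 against 708 and 720. SSA4, a stress-inducible Hsp70, had signals of 602 and 1392 against 378 and 468, so that replicate 4 alone was far above the other cultures. SIS1, an essential Hsp40, was 1.86-fold higher and FES1, an exchange factor for Hsp70, was 1.68-fold higher. The ribosome-bound Hsp70 SSB1 had signals of 16611 and 15540 against 16129 and 14962, which overlap. Of 11 mitochondrial chaperones 7 were higher and 1 lower, with a median of 0.18. HSP78, the mitochondrial disaggregase, had signals of 2573 and 2886 against 371 and 431, a difference of 2.72. MDJ1, a mitochondrial Hsp40, was 2.07-fold higher, whereas HSP60, the mitochondrial chaperonin, was 1.13-fold higher.

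HSP30 encodes a plasma membrane protein made under heat and other stress, and YRO2 and MRH1 are its relatives. HSP30 had signals of 7071 and 9512 in replicates 1 and 4 and of 2217 and 1324 in replicates 2 and 3. YRO2 had signals of 2351 and 3659 against 1031 and 629. MRH1 had signals of 8425 and 7792 against 8505 and 9387. HSP30 and YRO2 were thus higher without overlap, by 2.25 and 1.84, while MRH1 was lower by a difference of -0.14. In CDC34tm, HSP30 lay between 122 and 181 and YRO2 between 78.6 and 125, below every WT culture.

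**Figure D3:**
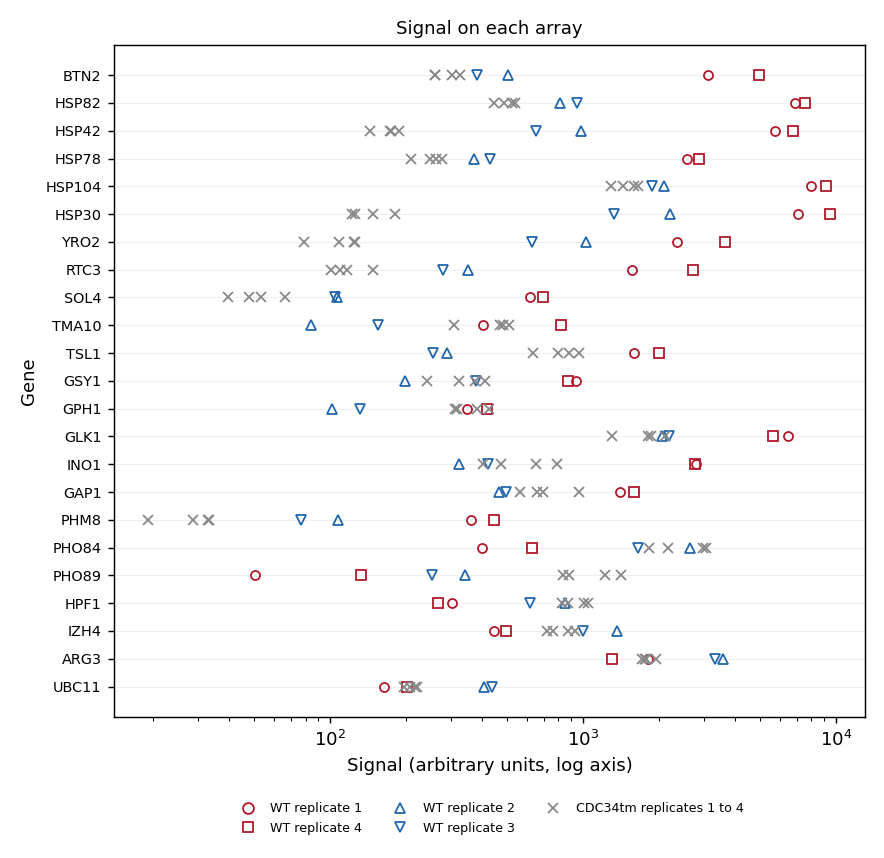
Signal of 23 genes on each of the 8 arrays, on a log axis in arbitrary units, with red circles and squares for WT replicates 1 and 4, blue triangles for replicates 2 and 3, and grey crosses for the 4 CDC34tm arrays. From BTN2 down to PHM8 the red symbols lie to the right of the blue ones, and from PHO84 to UBC11 to the left. The CDC34tm arrays lie to the left of all WT arrays for HSP42, HSP82 and HSP30, and between the WT pairs for TSL1.

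Chaperone genes outside these groups showed little of this pattern. Of 19 genes for folding in the endoplasmic reticulum 6 were higher without overlap and 3 lower, with a median of 0.02. The largest difference among them was 0.53, that of ERO1, the oxidase that forms disulfide bonds, with signals of 4543 and 4585 against 3257 and 3074. KAR2, the Hsp70 of that compartment, had signals of 11453 and 11094 against 8722 and 8880. Of 15 genes of the cytosolic chaperonin and prefoldin 4 were higher and 5 lower, and their differences lay between -0.18 and 0.11. Oxidant defence genes had a median of 0.04, with 10 of 23 higher and 1 lower. GPX1, a glutathione peroxidase, had the largest difference of that list, with signals of 604 and 552 against 338 and 379.

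Genes of the general stress response under Msn2 and Msn4 were mostly higher in replicates 1 and 4. Of 30 listed genes 26 met the signal minimum, and of these 22 were higher without overlap, 2 were lower and 2 overlapped, with a median of 0.76. The 22 include XBP1, which met the minimum only through replicates 1 and 4. RTC3 had signals of 1563 and 2722 against 350 and 279. SOL4, a 6-phosphogluconolactonase, had signals of 615 and 693 against 106 and 105. TMA10, a ribosome-associated protein, had signals of 402 and 819 against 83.8 and 155. All 3 were separated without overlap, and TMA10 had the widest spread within the pairs, with an SD of 0.632. GAD1, glutamate decarboxylase, was 3.11-fold higher, and STF2 was 2.79-fold higher. PNC1, the nicotinamidase that feeds NAD+ salvage, had signals of 7850 and 7572 against 3146 and 2619. CTT1, the cytosolic catalase, had signals of 305 and 382 against 239 and 207.

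HSP12, a membrane-associated stress protein and a common reporter of Msn2 and Msn4 activity, did not follow these genes. Its signal was 135 and 277 in replicates 1 and 4 and 2012 and 302 in replicates 2 and 3. Replicate 2 alone was high, and replicate 3 was close to replicate 4. The difference of -1.93 therefore comes with an SD within the pairs of 1.420, and was -0.60 without replicate 2. In CDC34tm the HSP12 signal was 1259, 639, 1181 and 2277, so this gene also varied widely there. GND2, a phosphogluconate dehydrogenase, was the other list member that was lower without overlap, with a difference of -0.38.

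Storage carbohydrate genes were higher in replicates 1 and 4. TSL1, a subunit of the trehalose synthase complex, had signals of 1591 and 1992 against 291 and 254. The catalytic subunits TPS1 and TPS2 were 1.86-fold and 2.11-fold higher. NTH2, a trehalase, had signals of 617 and 723 against 659 and 704, which overlap. Of the 7 trehalose genes 6 were higher without overlap and none was lower, with a median of 0.59. Of 11 glycogen genes above the signal minimum 9 were higher and 1 lower, with a median of 0.64. The glycogen synthases GSY1 and GSY2 had signals of 934 and 875 against 198 and 378, and of 1263 and 1546 against 460 and 492. The branching enzyme GLC3 had signals of 1328 and 1512 against 433 and 565, and the phosphorylase GPH1 had 346 and 416 against 102 and 131. Genes for synthesis and breakdown of glycogen were thus both among those separated without overlap. In CDC34tm, GSY2 lay between 1286 and 1621, at the level of WT replicates 1 and 4, whereas GLC3 lay between 454 and 564, at the level of replicates 2 and 3.

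Several enzymes of sugar metabolism were among the higher genes. GLK1, glucokinase, had signals of 6456 and 5655 against 2046 and 2195. TDH1, a glyceraldehyde-3-phosphate dehydrogenase linked to stress, had 8212 and 10335 against 3985 and 3980. GPD1, which makes glycerol-3-phosphate, had 5090 and 5627 against 2240 and 2270, and ALD6, a cytosolic aldehyde dehydrogenase, had 7332 and 6071 against 1558 and 2793. All 4 genes were at least 2-fold higher without overlap. Of 16 glycolytic and fermentative genes, TDH1 among them, 4 were higher, 2 were lower and 10 overlapped, with a median of 0.01. HXK2, the main hexokinase in glucose, had 11155 and 10178 against 10656 and 10525, which overlap. CDC19, pyruvate kinase, had signals of 14645 and 12887 against 14031 and 14280, which overlap. Of 37 genes of the respiratory chain and ATP synthase 10 were higher and 11 lower, with a median of 0.00.

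Of 7 hexose transporter and sensor genes above the signal minimum 1 was higher without overlap, 3 were lower and 3 overlapped, with differences between -0.33 and 0.70. Of 9 genes for gluconeogenesis and the glyoxylate cycle 3 were higher, 5 were lower and 1 overlapped, with differences between -0.51 and 1.13. HXT1, the low-affinity transporter made in high glucose, had signals of 4449 and 5748 against 6830 and 5883. HXT7, a high-affinity transporter whose probe set may also read a near-identical copy, had 1868 and 2241 against 938 and 1681. HXT1 was lower and HXT7 higher without overlap, and replicate 3 was near the other pair for both. ADR1, the activator of genes for growth on ethanol, had signals of 232 and 342 against 107 and 135. Its target ADH2, the alcohol dehydrogenase that consumes ethanol, had 79.5 and 70.6 against 115 and 112. ADR1 was thus 2.18-fold higher, and ADH2 was 1.42-fold higher in the other pair.

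Proteasome genes differed by small amounts in one direction. All 34 subunit and assembly genes listed were higher in replicates 1 and 4 without overlap, with differences between 0.19 and 0.50 and a median of 0.35. PRE5, a subunit of the catalytic core, had signals of 4138 and 4064 against 2674 and 3156. RPN6, a subunit of the regulatory lid, had 6935 and 6503 against 4899 and 4719. Their activator RPN4 had 3557 and 3695 against 3082 and 2851, a difference of 0.29. None of these genes reached 2-fold. Of 21 genes for ubiquitin and Cdc48 function 12 were higher and 1 lower, with a median of 0.16. UFD1 and NPL4, the partners of Cdc48 in extracting ubiquitinated proteins, had differences of 0.58 and 0.42.

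Genes for making ribosomes lay on the other side. Of 55 ribosome biogenesis genes none was higher, 48 were lower without overlap and 7 overlapped, with a median of -0.28. ROK1, an RNA helicase for the small subunit, had signals of 1633 and 1704 against 2573 and 2660. RRP9, part of the small subunit processome, had 1661 and 1877 against 2785 and 2559. Both were lower without overlap, at 1.56-fold and 1.51-fold higher signals in replicates 2 and 3. Subunits of RNA polymerases I and III were lower in 17 of 19 genes and higher in none, with a median of -0.23. RRN11, a factor that brings RNA polymerase I to ribosomal DNA, had signals of 807 and 764 against 1578 and 1461, a difference of -0.94. Mitochondrial ribosomal proteins were lower in 60 of 71 genes and higher in 1, with a median of -0.19. The exception MRP8, listed by its name, had signals of 4329 and 3679 against 3248 and 2921.

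Cytosolic ribosomal proteins did not follow. Of 129 listed genes 5 were higher without overlap, 15 were lower and 109 overlapped, with a median of -0.01 and differences between -0.22 and 0.32. The 15 include RPP1 at -0.11, listed by its name, which does not encode a ribosomal protein. RPL3, a protein of the large subunit, had signals of 16853 and 15215 against 16137 and 15905, which overlap. Many of these genes have near-identical copies, whose signals the probe sets may not separate.

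**Figure D4:**
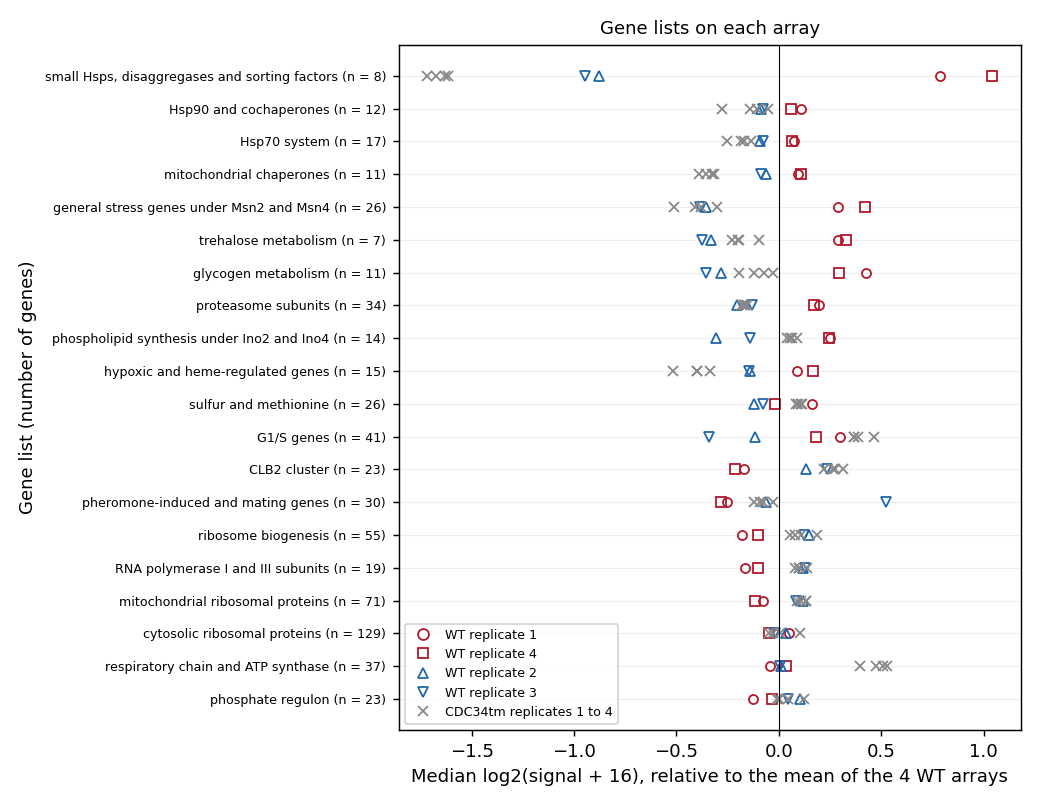
Median over the genes of each of 20 lists of log2(signal + 16), relative to the mean of the 4 WT arrays, on each of the 8 arrays. Symbols are as in the plot of single genes. Chaperone, stress and storage carbohydrate lists have WT replicates 1 and 4 to the right, the ribosome biogenesis, polymerase and CLB2 lists have them to the left, and in the pheromone list WT replicate 3 stands alone at 0.52.

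Genes of the cell cycle differed by phase. Of 41 genes transcribed at the G1/S transition 34 were higher in replicates 1 and 4 without overlap and none was lower, with a median of 0.44. CDC21, thymidylate synthase, had signals of 1253 and 1163 against 687 and 588. RNR1, the large subunit of ribonucleotide reductase, had 4887 and 4012 against 3158 and 2270. RFA2, of the single-strand DNA binding complex, had 3044 and 2927 against 1804 and 1649. These DNA synthesis genes did not overlap between the pairs, whereas CLN1, a G1 cyclin, did, with 1248 and 834 against 1100 and 850. The second G1 cyclin CLN2 had a difference of 0.41.

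Of 23 genes of the CLB2 cluster, transcribed towards mitosis, none was higher, 20 were lower without overlap and 3 overlapped, with a median of -0.40. CLB2, the main mitotic cyclin, had signals of 870 and 773 against 1173 and 1483. SWI5, a transcription factor for the exit from mitosis, had 639 and 765 against 996 and 1177. UBC11, a ubiquitin-conjugating enzyme, had 163 and 201 against 405 and 435, 2.21-fold higher in replicates 2 and 3. Of 8 histone genes 1 was higher without overlap and 7 overlapped. Of 20 genes of the M/G1 list 4 were higher and 7 lower, with a median of -0.02. In RNA from a whole culture, fewer cells in a phase and less RNA per cell cannot be told apart.

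The phosphate transporters PHO84 and PHO89 were lower in replicates 1 and 4. PHO84, the high-affinity phosphate transporter, had signals of 398 and 630 against 2641 and 1654. PHO89, a sodium-coupled phosphate transporter, had 50.6 and 132 against 340 and 253. Neither gene overlapped, and their differences were -2.03 and -1.64. Of the low-affinity transporters, PHO87 overlapped at -0.10 and PHO90 and PHO91 were lower without overlap at -0.15 each. PHM8, a phosphatase that releases phosphate from nucleotides, had the opposite order, with 361 and 443 against 108 and 76.4. PHO5, the secreted acid phosphatase regulated with PHO84, had 358 and 345 against 400 and 289, which overlap. SPL2, which acts on low-affinity uptake, was dim at 43.9 and 64.5 against 67.1 and 40.3. Of 23 genes of the phosphate regulon 3 were higher, 12 were lower and 8 overlapped, with a median of -0.10. In CDC34tm, PHO89 lay between 836 and 1407, above every WT culture.

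Besides PHO84, PHO89 and UBC11, the 8 genes at least 2-fold lower were FIG1, HSP12, HPF1, IZH4 and ARG3. FIG1 met the signal minimum only through replicate 3, with signals of 28.2, 32.6 and 44.9 in replicates 1, 4 and 2. HPF1, a cell wall mannoprotein, had signals of 304 and 267 against 846 and 617. IZH4, a membrane protein linked to zinc, had 446 and 494 against 1358 and 1001. ARG3, ornithine carbamoyltransferase of arginine synthesis, had 1806 and 1299 against 3593 and 3336. These 3 genes were separated without overlap. ARG3 stood apart from its pathway list, since of 37 amino acid synthesis genes under Gcn4 5 were higher and 13 lower, with a median of -0.05. The next in that list was ARG8, acetylornithine aminotransferase, at -0.49. IZH1, a relative of IZH4, and ZAP1, the zinc-responsive activator, had differences of -0.66 and -0.64, and 7 of 11 genes of zinc and copper supply were lower and 2 higher. Among genes without overlap, GFD2 and KAR4, a mating transcription factor, completed the 12 lowest, with differences of -0.89 and -0.88.

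INO1, inositol-3-phosphate synthase and the classic target of the Ino2 and Ino4 activators, had signals of 2787 and 2768 against 324 and 419. Both cultures of the first pair were nearly equal and far above the second, with a difference of 2.86. A list of 14 phospholipid synthesis genes was added after this value had been seen. It had 10 genes higher without overlap, 1 lower and 3 overlapping, with a median of 0.56. CHO1, phosphatidylserine synthase, had 5780 and 5831 against 3453 and 4301. OPI3, a methyltransferase for phosphatidylcholine, had 11105 and 10704 against 6830 and 7401. The activator genes went in opposite directions, with INO4 at 0.74 and INO2 at -0.28, while OPI1, the repressor, overlapped. Ergosterol synthesis genes had a median of 0.08, with 10 of 25 higher and 1 lower. ERG28, a scaffold for ergosterol enzymes, had the largest difference of these, 0.62.

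Nitrogen-regulated permeases were among the higher genes although glutamine was supplied to every culture. GAP1, the general amino acid permease, had signals of 1402 and 1589 against 464 and 497. The ammonium permeases MEP1 and MEP2 had 1444 and 1225 against 552 and 412, and 956 and 856 against 407 and 446. GAT1, an activator of such genes, had 920 and 831 against 524 and 454. None of these 4 overlapped. Of 30 genes of the nitrogen list 12 were higher and 5 lower, with a median of 0.06, so these permeases were not typical of it. Sulfur and methionine genes were higher in 15 of 26 and lower in 2, with a median of 0.24. MET32, a regulator of that pathway, had 1255 and 671 against 499 and 580, so replicate 1 stood above replicate 4.

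Several genes with roles in sulfur compound use that were in no list also exceeded 2-fold, and were chosen after their values were seen. YCT1, a cysteine transporter, had signals of 761 and 705 against 172 and 252. BDS1, a sulfatase, had 1476 and 1753 against 564 and 617. SEO1, a putative permease, had 866 and 584 against 231 and 324. Each was higher in both cultures of the first pair. In CDC34tm, YCT1 lay between 593 and 771 and SEO1 between 594 and 720, within or near the range of WT replicates 1 and 4.

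Of 15 hypoxic and heme-regulated genes 9 were higher, 1 was lower and 5 overlapped, with a median of 0.26. The 9 include ROX1, the repressor of hypoxic genes that heme activates, at 0.12. CYC7, the hypoxic isoform of cytochrome c, had signals of 287 and 331 against 73.6 and 86.5. Its aerobic partner CYC1 had 1053 and 1489 against 2332 and 1715. These isoforms thus had opposite orders, at 1.76 for CYC7 and -0.67 for CYC1. COX5B, the hypoxic isoform of a cytochrome c oxidase subunit, had 981 and 991 against 395 and 523. TIR1, a cell wall mannoprotein, had 3050 and 2035 against 939 and 1119. SPI1, another cell wall protein that increases in stationary phase, had 2920 and 4712 against 761 and 1054. Of 26 cell wall genes as a whole 8 were higher and 6 lower, with a median of 0.00.

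Of the genes at least 2-fold higher, 40 of 73 were in at least 1 list and 28 were in the chaperone, general stress or storage carbohydrate lists. The lists behind the 28 held 12, 17, 8, 11, 3, 26, 7 and 11 of the 5202 genes, some in more than 1 list. The lists were chosen with earlier results of these data known, so nothing is read from either count. Genes of the 73 in no list included 2 of the 12 largest. FMP48, a putative protein kinase, had signals of 958 and 1301 against 186 and 211. RGI1, linked to energy metabolism, had 2159 and 3838 against 502 and 663. Both were at least 4-fold higher without overlap. MGA1, a protein similar to heat shock transcription factors, had 338 and 453 against 86.7 and 92.0, and PIC2, a mitochondrial carrier for phosphate and copper, had 3690 and 4477 against 1150 and 1036.

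The transcripts of the regulators themselves differed by less than 2-fold. HSF1 had signals of 1093 and 993 against 1011 and 888, which overlap. MSN2 had 1624 and 1614 against 1523 and 1480, and MSN4 had 538 and 514 against 314 and 497. MSN2 and MSN4 were separated without overlap by 0.11 and 0.40. The largest differences among 13 stress regulators were those of CIN5, a Yap-family activator, at 0.85 and USV1 at 0.65. YAP1 and RIM15, a kinase for entry into stationary phase, had differences of 0.19 and 0.24, and SKN7 was lower at -0.23. HOG1, SOK2, HAC1 and GIS1 overlapped. Of the 13 genes 7 were higher and 1 lower, with a median of 0.14, and none reached 2-fold.

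DNA damage genes were higher in 9 of 15 and lower in 1, with a median of 0.16. Among them MAG1, a DNA glycosylase, was at 0.89 and HUG1, a damage-induced inhibitor of ribonucleotide reductase, at -0.42. Purine and one-carbon synthesis genes were lower in 10 of 20 and higher in none, with a median of -0.06. Leucine synthesis genes were lower in 6 of 11 and higher in none, with a median of -0.12. Drug efflux genes were higher in 4 of 16 and lower in 8, and iron uptake genes were higher in 6 of 26 and lower in 5. Over all probe sets used, 25.7% were higher and 35.4% lower without overlap, and nothing is read from counts near those shares. AQR1, a multidrug transporter, had 2416 and 2511 against 4283 and 4539. Genes of meiosis were higher in 2 of 13 and lower in 5, and daughter cell separation genes were higher in 4 of 10 and lower in 2.

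The pheromone response list had a median of -0.56, which rested largely on replicate 3, since it was -0.16 without that culture. FIG1, a membrane protein of mating cells, had signals of 28.2 and 32.6 in replicates 1 and 4, 44.9 in replicate 2 and 509 in replicate 3. PRM6 had 32.5 and 24.6, then 30.4 and 381. AGA1, the anchor of the agglutinin, had 1774 and 2348, then 2278 and 7778, and FUS1, needed for cell fusion, had 655 and 680, then 842 and 2059. In each of these genes replicate 3 was far above the other 3 cultures, and replicate 2 was close to replicates 1 and 4. The difference of FIG1 was -1.95, and -0.39 without replicate 3. The list median relative to the WT mean was -0.25 and -0.28 in replicates 1 and 4, -0.06 in replicate 2 and 0.52 in replicate 3. Of 30 genes 2 were higher without overlap, 13 were lower and 15 overlapped.

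Of the 16 probe sets at least 2-fold apart between replicates 2 and 3, 9 were pheromone or mating genes, namely FIG1, PRM6, PRM1, PRM2, AGA1, FIG2, PRM3, PRM8 and FUS1, all higher in replicate 3. Probe sets of Ty3 retrotransposons, whose transcription responds to pheromone, followed, with YIL082W-A at 1101, 1276 and 1065 in replicates 1, 4 and 2 and at 4525 in replicate 3. These elements are near-identical copies, so their probe sets are not independent. YBL100W-A, of another Ty element, was also higher in replicate 3. The genes higher in replicate 2 were HSP12, PTR2, which imports peptides, and YOR293C-A. PTR2 had 452 in replicate 2 and 195 in replicate 3.

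**Figure D5:**
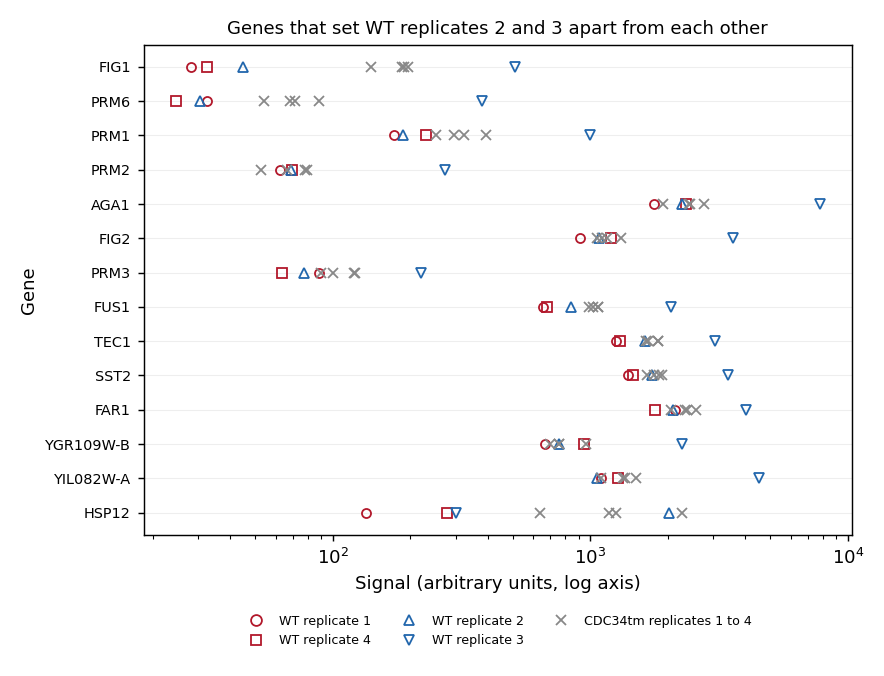
Signal of 14 genes on each of the 8 arrays, on a log axis in arbitrary units, with symbols as in the plot of single genes. WT replicate 3 lies to the right of every other array from FIG1 to YIL082W-A. For HSP12, WT replicate 2 lies among the CDC34tm arrays and the other WT arrays lie to the left.

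The labelled mating type was checked against its genes on every WT array. SAG1, the agglutinin of α cells, had signals of 8911, 9461, 7679 and 10327 in replicates 1, 4, 2 and 3. STE3, the receptor of α cells for a-factor, had 6195, 6074, 6081 and 8818, highest in replicate 3. The receptor of a cells, STE2, had signals of 213, 212, 245 and 237, and MFA1, an a-factor gene, had 141, 208, 219 and 263. BAR1, a protease of a cells that degrades α-factor, lay between 60.2 and 96.1. These signals were above the background of 12.4 to 13.5 given by the 95th percentile of fission yeast probe sets on the WT arrays. STE2, MFA1 and BAR1 were thus low and not at 0 on every WT array, including replicate 3. Of 7 listed a-specific genes, 2 were below the signal minimum, and the signals of MFA2 and STE6 are not given here. The part of a-specific genes in the pheromone genes of replicate 3 was not tested.

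Between replicates 1 and 4, 12 probe sets were at least 2-fold apart. Replicate 4 was higher for EGO4 at 500 and 1344, SSA4, DDR2 at 246 and 543, PHO89, DIP5, CDC13, NCE103 and YAR009C. Replicate 1 was higher for the iron siderophore transporter ARN2 at 3164 and 1266, for FIT2, a cell wall mannoprotein of iron uptake, at 1167 and 429, and for YBL029W and YDR524W-C. Stress genes thus also varied within the pair, with SSA4 and DDR2 higher in replicate 4. ARN2 lay at 932 and 1074 in replicates 2 and 3, near replicate 4.

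The trimmed mean was 1000 on every array, and the median signal of the probe sets used lay between 1297 and 1333 in WT. The ratio of 3' to 5' signal was 1.32 and 1.25 against 1.33 and 1.38 for ACT1, and 2.38 and 2.53 against 2.85 and 2.86 for EAF5. It was 2.53 and 2.37 against 2.31 and 2.29 for SPT15, in the opposite order. It was 1.40 and 1.33 against 2.01 and 1.88 for TDH1, the widest of these gaps, in a gene that itself differed. For SRB4, WBP1 and RIP1 the pairs overlapped. Signals of the hybridisation spike bioC were 1206 and 1059 against 1282 and 977, and those of 18S rRNA were 628 and 303 against 649 and 416. Both spike and rRNA signals were thus higher in replicates 1 and 2 than in 3 and 4, which is not the division of the genes above. The part of RNA quality in the gene differences was not tested. Across the 5202 genes, the rank correlation of the difference with coding length was -0.05, given as a description.

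The CDC34tm arrays, which the choice of pairs did not use, carry the same replicate numbers, and were tested in the same division. Replicates 1 and 4 against 2 and 3 gave 0 called probe sets of 5242 (0%) by limma at an adjusted p under 0.05, with 108 at an unadjusted p under 0.05, 2.06% of those tested. HSP82 had CDC34tm signals of 522 and 488 in replicates 1 and 4 and of 447 and 538 in replicates 2 and 3, a difference of 0.04 with an SE of 0.12. HSP42 had 174 and 173 against 144 and 188, a difference of 0.07 with an SE of 0.16. INO1 had 476 and 655 against 404 and 790, a difference of -0.02 with an SE of 0.30. In these genes the CDC34tm groups overlapped. The adjusted p of limma was 1.00 for each of them.

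The 73 genes that were 2-fold higher in WT had CDC34tm differences between -0.29 and 0.56, with a median of 0.06. PHO84 had CDC34tm signals of 3076 and 2161 against 2974 and 1830, a difference of 0.14 with an SE of 0.25, and its adjusted p by limma was 1.00. No probe set was 2-fold apart without overlap in CDC34tm. Across 5242 probe sets the WT and CDC34tm differences had a Pearson correlation of -0.02, as a description over genes that share arrays. No such division was seen under the same numbers in CDC34tm, at the precision that 2 cultures against 2 allow. The numbers were not taken to pair arrays of the strains, so this result cannot bear on the WT division. CDC34tm replicates 2 and 3, placed on one side, had the largest SD of differences of any CDC34tm pair, 0.229. That widens the error of the fit. The limma result was not stable, since calls appeared when CDC34tm replicate 3 was left out. There replicate 2 alone forms one side and is assumed to vary like the other cultures. On the first principal component replicate 2 lay at -10.4, and replicates 1, 3 and 4 at 2.08, 5.98 and 2.30. Whether the strains differ in how much their cultures vary was not tested, since the WT values chose the pairs.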

How the data were processed

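RNA of 8 cultures was hybridised to 8 Affymetrix Yeast 2.0 arrays. The deposited values are linear intensities, MAS5 signals per the submitters' processing notes, with a version and scaling target not given in the sources used here. Of 10928 probe sets, 5498 carry 1 S. cerevisiae gene name in the platform annotation, with 12 symbols updated through RefSeq. The 5242 with a mean WT signal of at least 50 were kept and 256 were left out.

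Values were taken as log2(signal + 16). WT replicates 1 and 4 were compared with 2 and 3 by order and difference, with no test. The same division of the 4 CDC34tm arrays was tested with limma 3.58.1 in R 4.3.3 (lmFit, eBayes with a trend, two-sided, Benjamini-Hochberg adjustment over all 5242, threshold 0.05). The labels state separate cultures, and 2 arrays on each side limit the precision. Tested on simulated data for this CDC34tm comparison with 5242 probe sets, the steps recovered 32 of 50 changed 1.5-fold, 47 of 50 changed 2-fold, 50 of 50 changed 4-fold and 50 of 50 changed 8-fold, with 5 false calls. The simulated noise was normal and independent between probe sets, with SDs shuffled over them. It held no shift shared by the probe sets of 1 array, so recovery on the real arrays may differ.

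The pairs, the members and 45 gene lists were chosen with earlier results of these data known, and 1 list was added after its values were seen. Named genes are 5 markers (HSP42, HSP82, HSP30, BTN2 and PHO89), the 12 largest differences in each direction without overlap, up to 4 of each list, the stress regulators, any called in CDC34tm, and those beside the signal minimum. Further examples were picked with their values known. A gene with several probe sets is given by the brightest. Deviations of same-numbered WT and CDC34tm arrays correlated at 0.03, 0.24, -0.09 and 0.07 across probe sets for replicates 1 to 4. Correlations between arrays of other numbers lay between -0.28 and 0.21, so the 0.24 of replicate 2 was the highest. The numbers were not taken to pair arrays. Alternatives were pseudocounts of 1 and 64, quantile normalization, median centring, a signal minimum of 200 or none, eBayes without the trend, leaving out each array and, added after seeing the data, a 1.5-fold minimum.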

Additional observations from a re-analysis of the deposited data

Results flagged for a closer look

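Dixon's ratio, the gap of the highest or lowest sample to its neighbour over the range, was checked in 48 groups of 4 arrays for 24 genes, and chance passes its 95% critical value in about 1 in 20 groups. FIG1 in WT had a ratio of 0.871, with replicate 3 highest at a signal of 509. FIG1 in CDC34tm had a ratio of 0.835, with replicate 3 lowest at 141. TMA10 in CDC34tm had a ratio of 0.831, with replicate 3 lowest at 308.

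Outside the named genes, 3517 probe sets carry no gene name and are no controls, and 211 of them had a mean WT signal of at least 50. Of these, 5 were at least 2-fold apart between WT replicates 1 and 4 and replicates 2 and 3 without overlap, 4 higher and 1 lower. Their differences reached 2.62 and -1.45 on the log2 scale.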

How the results depend on the processing

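The count of WT probe sets at least 2-fold higher in replicates 1 and 4 was 73, and lay between 64 and 84 under other pseudocounts, normalizations and signal minimums and between 73 and 83 when 1 array was left out. The count of lower probe sets was 8, lay between 6 and 8 under the same settings, and between 9 and 26 when 1 array was left out, with 26 without replicate 2 and 13 without replicate 4. With 3 arrays the order criterion is easier to meet. A 1.5-fold minimum, chosen after seeing the data, gave 231 higher (4.41%) and 79 lower (1.51%). The CDC34tm count by limma stayed at 0 under 7 planned settings, with 69 to 180 probe sets at an unadjusted p under 0.05. Leaving out 1 array gave between 0 and 366, with 1 without replicate 1 and 1 without replicate 4. The cause was not tested. Repeats of 189 genes and 46 list medians gave 0 reversals of direction. List medians moved by more than the spread within pairs in 77 repeats and not in 383. Most of these moves came from leaving out 1 array, with 16, 13, 12 and 19 for replicates 1, 2, 3 and 4. A signal minimum of 200 gave 10, median centring 6 and a pseudocount of 64 gave 1. Differences of single genes moved past that spread in 30 repeats and not in 1846. Of these 30, 15 came with a pseudocount of 64, 6 with quantile normalization, 5 with median centring and 4 with a pseudocount of 1. For single genes, leaving out 1 array cannot move a difference past that spread by construction. No paired analysis was possible because the cultures compared are of one strain and share no replicate number. Dim genes near the signal minimum are the least precise, with background at 12.3 to 14.6.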
